A study of Homo sapiens with 10 samples.

Results

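The microRNA miR-210-3p was followed across 10 small RNA libraries of ES-2 cells, an established human cell line derived from an ovarian cancer. It is 1 of 2576 mature miRNAs in the deposited table, where it was found by its name, hsa-miR-210-3p. It was selected on its level in cells transfected against IGF2BP1 compared with control cells, known from an earlier analysis of these data, so its contrasts that share libraries with that one are described without a test. The libraries came from cells transfected with siRNA pools against IGF2BP1 (siIGF2BP1, 2 libraries), IGF2BP2 (siIGF2BP2, 3 libraries) or IGF2BP3 (siIGF2BP3, 3 libraries), or with control siRNA (siC, 2 libraries). The 3 targets encode paralogous RNA-binding proteins. All cells were of the parental line, and no label gives the time after transfection or the oxygen level of the cultures, and none names hypoxia as a condition. The table holds only mature miRNAs, so it does not show how far the targets were depleted.

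In many cell types miR-210-3p is the miRNA most regularly induced when oxygen is low. Its hairpin is cut from MIR210HG, a long non-coding RNA whose transcription is driven by hypoxia-inducible factor (HIF). Loaded into an Argonaute protein, it represses mRNAs of mitochondrial iron-sulfur cluster assembly and respiration such as ISCU, and of cell cycle regulators such as E2F3. The miRNA and its passenger arm are shown because the values below count these molecules. Capitals mark the seed, bases 2 to 8, which pairs with targets.
miR-210-3p: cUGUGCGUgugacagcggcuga
miR-210-5p: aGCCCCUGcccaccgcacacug
Both come from the hairpin MIR210 (RefSeq, GRCh38.p14, chr11:568089-568198, minus strand), printed 5′ to 3′ with the 5p arm and then the 3p arm in capitals.
MIR210: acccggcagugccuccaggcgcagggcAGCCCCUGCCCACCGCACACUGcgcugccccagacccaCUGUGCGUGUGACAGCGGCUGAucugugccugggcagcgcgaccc
The 5p arm spans bases 28 to 49 of the hairpin and the 3p arm bases 66 to 87, each 22 bases long. In GENCODE release 29 the hairpin lies inside the gene MIR210HG on the same strand and outside the exons of its 4 annotated transcripts. Among 2369 other mature human miRNAs in the RefSeq table, 0 carry the seed UGUGCGU at bases 2 to 8, and the longest stretch that any of them shares with miR-210-3p is 8 bases. For miR-210-5p the longest shared stretch is 10 bases, with miR-6743-3p, which had 1 read in all libraries together.

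The libraries held 462724 to 1269743 miRNA reads, with the 2 deepest in siIGF2BP1. The labels give the siIGF2BP2 and siIGF2BP3 samples one source name and the siIGF2BP1 and siC samples a different one, so that source name and group cannot be told apart between these pairs of groups. The 10 listed miRNAs of the imprinted 14q32 cluster followed the source name, at 0.135% to 0.219% of the reads in siIGF2BP1 and 0.164% to 0.376% in siC, against 0.000430% to 0.00128% in siIGF2BP2 and 0.000613% to 0.00151% in siIGF2BP3. Every siIGF2BP1 and siC library had reads of all 10, and the other libraries of 1 to 4. Of 8 blood cell miRNAs, 3 to 4 were read in siIGF2BP2 and siIGF2BP3 libraries and 6 to 7 in siIGF2BP1 and siC libraries, and their shares overlapped (0.0443% to 0.163% and 0.0458% to 0.120% of the reads). Of the erythroid miRNAs listed, miR-486-5p was at 0 in all libraries, but miR-451a and miR-144-3p were read in every siIGF2BP1 and siC library. In siIGF2BP2 and siIGF2BP3 miR-144-3p was at 0 in every library and miR-451a in some of them. Of 8 listed neural, muscle and liver miRNAs, 7 of which were matched in the table, 2 were read in siIGF2BP2 and siIGF2BP3 (0.0564% to 0.0680%) and 3 to 4 in siIGF2BP1 and siC (0.0730% to 0.121%), and hepatic miR-122-5p was at 0 throughout. The epithelial miR-200 family with miR-205-5p, 6 miRNAs in all, took at most 0.00121% of the reads of any library, and no miRNA specific to ovarian carcinoma was available to check the cell line. The part of these differences in the values of miR-210-3p was not tested, and in bulk RNA fewer cells with a miRNA and less of it per cell cannot be told apart. The labels do not say whether replicate libraries derive from independent cultures, and their spread may be technical.

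The level of miR-210-3p was high in siIGF2BP1 and low in every other library. Levels are normalised read counts as the authors deposited them, in which 1 read is worth 0.803 to 2.0 units depending on the library. The siIGF2BP1 libraries held 144 and 163 units of miR-210-3p (179 and 185 reads). The siIGF2BP2 libraries held 28.3, 28.6 and 19.0 units (20, 15 and 11 reads). The siIGF2BP3 libraries held 20.0, 18.9 and 20.2 units (10, 16 and 17 reads), and the siC libraries 24.7 and 24.0 units (15 and 18 reads). The lower siIGF2BP1 library stood 5.02-fold above the highest library of any other group, siIGF2BP2 replicate 2, and the 8 libraries outside siIGF2BP1 lay within 18.9 to 28.6 units. These are the values for which the miRNA was chosen, so no test of them is given.

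Group means were 153 ± 13.6 in siIGF2BP1 (SD, n = 2), 25.3 ± 5.47 in siIGF2BP2 (SD, n = 3), 19.7 ± 0.680 in siIGF2BP3 (SD, n = 3) and 24.3 ± 0.556 in siC (SD, n = 2). In order of level these are siIGF2BP1, siIGF2BP2, siC and siIGF2BP3. The means of siIGF2BP2 and siC differed by less than the spread of siIGF2BP2. The siIGF2BP3 libraries lay below both siC libraries, by more than the SD of either group. The SDs of siIGF2BP3 and siC, however, were 3.45% and 2.28% of their means, where counting so few reads alone gives about 27.0% and 24.7%, so these SDs understate the error. Over the summed reads of each group, miR-210-3p stood at 154 RPM (reads scaled to the total of all miRNA reads) in siIGF2BP1 (exact Clopper-Pearson 95% interval 138 to 171). The corresponding RPM values were 26.4 (19.3 to 35.2) in siIGF2BP2, 21.0 (15.2 to 28.3) in siIGF2BP3 and 25.6 (17.7 to 36.0) in siC. The intervals of siIGF2BP2, siIGF2BP3 and siC overlapped one another. Intervals cover counting error only, since reads without molecular identifiers are not independent molecules.

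**Figure D1:**
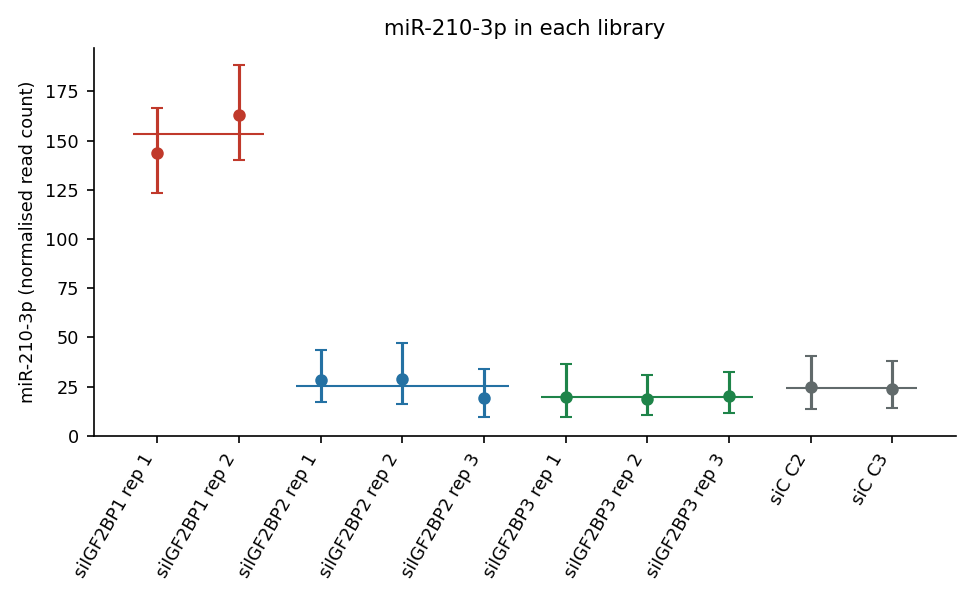
Normalised read count of miR-210-3p (y axis, from 0) for the 10 libraries (x axis; colours mark groups). Each point is 1 library, error bars are exact 95% intervals from the read count alone and horizontal lines are group means. The siIGF2BP1 libraries lie at 144 and 163 and the other 8 between 18.9 and 28.6.

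Measured by its place within each library, which no scaling factor can change, miR-210-3p ranked 133rd and 128th by reads in the siIGF2BP1 libraries. It ranked 209th, 207th and 238th in siIGF2BP2, 231st, 237th and 234th in siIGF2BP3 and 234th and 247th in siC. Between 559 and 810 miRNAs had a read in a library. The siIGF2BP1 libraries were thus set apart by rank as they were by level. These ranks, and the ratios below, come from the reads for which miR-210-3p was chosen, so they are no independent evidence.

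The siIGF2BP1 libraries were also set apart relative to miRNAs that are often used as references. Against miR-191-5p, there were 10.2 and 10.8 units of miR-210-3p per 1000 units in siIGF2BP1, 1.08 to 1.63 in siIGF2BP2, 1.41 to 1.74 in siIGF2BP3 and 1.67 and 1.70 in siC. The mean ratio in siIGF2BP1 was 6.24 times that in siC. Against miR-16-5p, which is co-transcribed with miR-15 and restrains the cell cycle, it was 5.57 times, and against let-7a-5p, a member of the tumour-suppressive let-7 family, 6.30 times. For siIGF2BP2 the corresponding factors were 0.826, 1.01 and 1.05, and for siIGF2BP3 0.947, 0.670 and 0.818. The siIGF2BP3 ratio to miR-16-5p, 3.50 to 4.16, lay below both siC libraries (5.44 and 5.82), while its ratio to miR-191-5p overlapped that of siC. The fourth reference, miR-103a-3p, is listed at 0 in all libraries, although this miRNA is widely expressed, and was not used. In the test across all miRNAs (limma, below), miR-191-5p itself was called higher in siIGF2BP2 than in siC (log2 fold change 0.33 ± 0.09, SE, adjusted p = 0.0435). It was also called higher in siIGF2BP2 than in siIGF2BP3 (0.55 ± 0.08, SE, limma adjusted p = 0.00231). The other references were not called against siC in any knockdown.

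**Figure D2:**
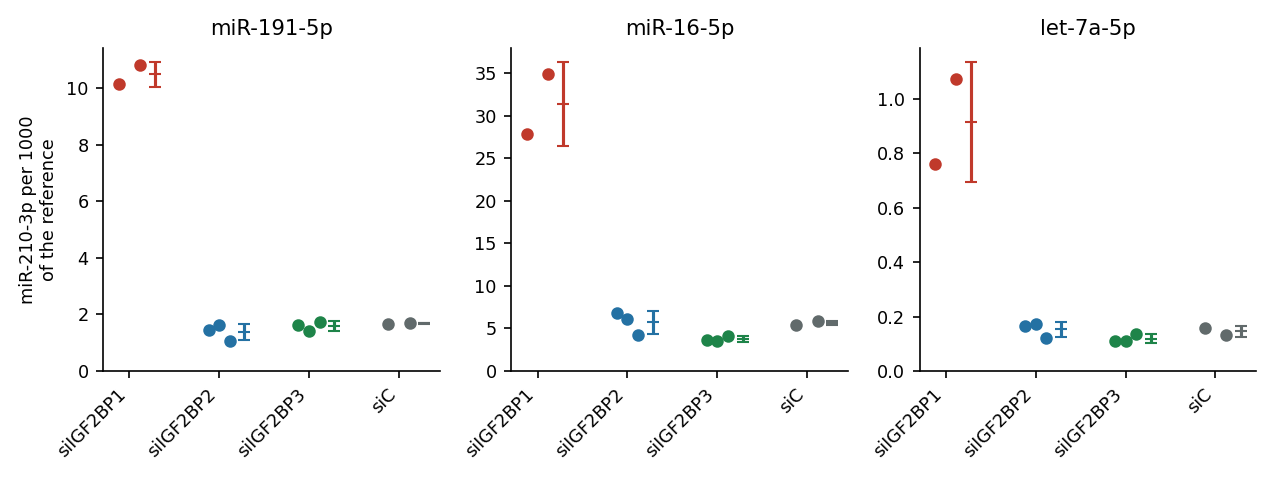
Units of miR-210-3p per 1000 units of miR-191-5p, miR-16-5p or let-7a-5p (y axes, from 0) in the 4 groups (x axes). Each point is 1 library, and the bar beside the points is the mean and SD. The siIGF2BP1 libraries lie above all others in each panel, between 10.2 and 10.8 for miR-191-5p, where the other groups lie between 1.08 and 1.74.

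On the log2(value + 1) scale, which understates the change of low miRNAs, miR-210-3p differed from siC by 2.60 ± 0.28 (log2 fold change ± SE) in siIGF2BP1. In siIGF2BP2 it differed by 0.03 ± 0.26 and in siIGF2BP3 by -0.29 ± 0.26. These 3 values share the siC libraries. The authors' deposited table gives log2 fold changes of 2.65, 0.06 and -0.30 for the same contrasts. The value in siIGF2BP3 turned positive, 0.28, when libraries were rescaled by upper quartile, a scaling that moved the median of the 313 miRNAs with a mean of at least 10 from 0.08 to 0.67, so that miR-210-3p stayed below that median. Against the other knockdowns, miR-210-3p in siIGF2BP1 differed by 2.57 ± 0.26 from siIGF2BP2 and by 2.90 ± 0.26 from siIGF2BP3, contrasts in which knockdown and source name cannot be told apart. Among the 313 miRNAs, miR-210-3p ranked 27th by log2 fold change in each of these contrasts. In siIGF2BP1 against siC, the contrast on which it was chosen, it had the highest log2 fold change of the 313. Next came miR-4788 (2.28), miR-585-3p (2.27), miR-335-3p (2.25), miR-503-3p (1.96) and miR-424-3p (1.88). Of these, miR-585-3p and miR-424-3p were called (limma adjusted p = 0.0322 and 0.0003). The rises of miR-4788, miR-335-3p and miR-503-3p missed the threshold (limma adjusted p = 0.0534, 0.0743 and 0.179). The hairpins of miR-503-3p and miR-424-3p are neighbours on the X chromosome.

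The contrast of siIGF2BP2 with siIGF2BP3 shares no library with the one on which miR-210-3p was chosen, and both groups carry the same source name. Here miR-210-3p had a log2 fold change of 0.32 ± 0.23 (SE, 95% interval -0.17 to 0.82), which missed the threshold (limma, Benjamini-Hochberg adjusted p = 0.605 over 889 miRNAs). The values of both groups overlapped, since siIGF2BP2 replicate 3 (19.0) lay within the siIGF2BP3 range while replicates 1 and 2 lay above it. In this contrast 3.15% of the miRNAs tested were called, 1.69% higher and 1.46% lower. The groups held 10 to 20 reads of miR-210-3p a library.

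**Figure D3:**
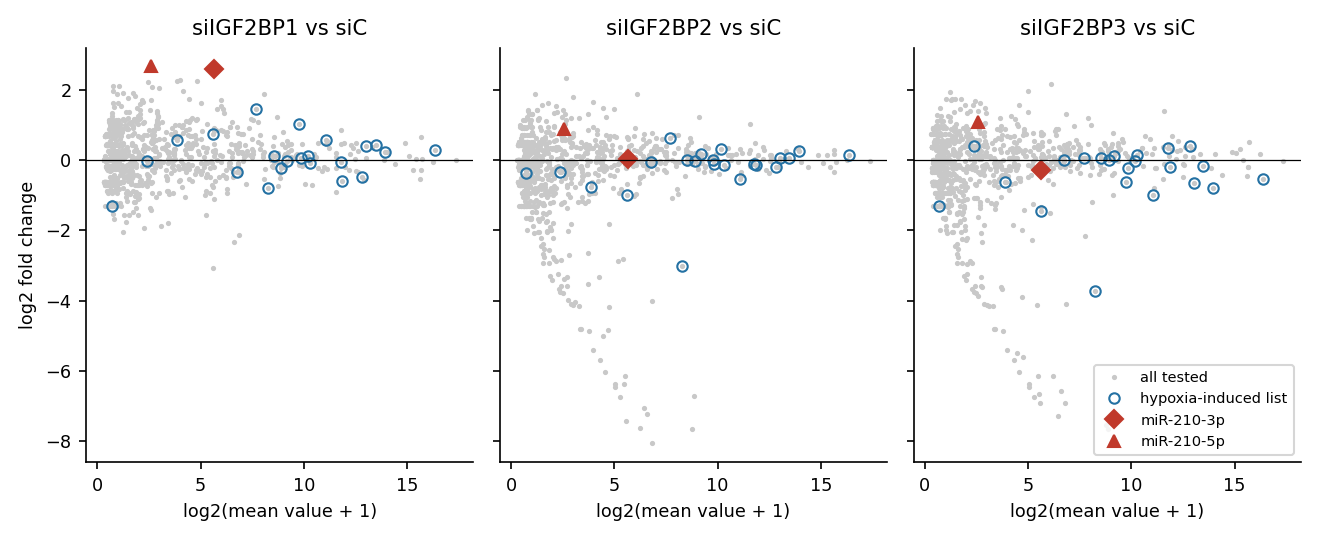
Log2 fold change (y axes) against log2(mean value + 1) (x axes) of the 889 miRNAs tested, for each knockdown against siC. The red diamond is miR-210-3p, the red triangle miR-210-5p, and blue circles are the other hypoxia-induced miRNAs listed. In siIGF2BP1 the diamond (2.60) and the triangle (2.67) stand above all other points, and in siIGF2BP2 and siIGF2BP3 the diamond lies at 0.03 and -0.29.

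The passenger arm miR-210-5p, made from the same hairpin, was scarce. It was measured in the same libraries on which miR-210-3p was selected, so its test is no independent evidence. It had 11 and 16 reads in siIGF2BP1, 6, 2 and 0 in siIGF2BP2, 4, 2 and 1 in siIGF2BP3 and 0 and 2 in siC. In normalised read counts these are 8.84 and 14.1 in siIGF2BP1, 8.49, 3.82 and 0 in siIGF2BP2, 7.98, 2.37 and 1.19 in siIGF2BP3 and 0 and 2.66 in siC. A count of 0 allows up to 5.42 RPM in siC C2 and 5.47 RPM in siIGF2BP2 replicate 3, taking 3 reads as the floor. The siIGF2BP1 libraries lay above all others, although siIGF2BP2 replicate 1 and siIGF2BP3 replicate 1 came within 1 unit of the lower of them. Against siC the log2 fold change in siIGF2BP1 was 2.67 ± 1.04 (SE, 95% interval 0.42 to 4.92), the largest of all 889, and it missed the threshold (limma adjusted p = 0.224, unadjusted p = 0.0237), in a contrast where 2.47% of the miRNAs tested were called. Without siC C2 it was 1.74 and without siC C3 3.61, and it was 4.42 with a pseudocount of 0.1 and 1.39 with a pseudocount of 5. In the authors' deposited table its log2 fold change was 2.85 with a false discovery rate of 0.109. The log2 fold changes of miR-210-5p were 0.90 ± 0.95 in siIGF2BP2 against siC, 1.08 ± 0.95 in siIGF2BP3 against siC and -0.18 ± 0.85 in siIGF2BP2 against siIGF2BP3 (limma adjusted p = 0.735, 0.612 and 1). The last of these turned positive without siIGF2BP2 replicate 3 (0.74) or without siIGF2BP3 replicate 1 (0.40), and that of siIGF2BP2 against siC was -0.03 without siC C2 and 1.84 without siC C3. That of siIGF2BP3 against siC was 0.14 without siC C2 and 2.02 without siC C3, and 2.49 and 0.44 with pseudocounts of 0.1 and 5.

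The 5p arm made up 5.79% and 7.96% of the miR-210 reads in siIGF2BP1, from 190 and 201 reads of both arms. It made up 23.1%, 11.8% and 0% in siIGF2BP2, 28.6%, 11.1% and 5.56% in siIGF2BP3 and 0% and 10.0% in siC, from 11 to 26 reads of both arms. This share does not depend on how a library is scaled. It differed by 1.87 percentage points between siIGF2BP1 (6.87% ± 1.53, SD, n = 2) and siC (5.00% ± 7.07, SD, n = 2), less than the spread of siC. This difference is given without a test, since the share uses the 3p reads on which the miRNA was selected. Without siC C2 the difference was -3.13 points. Between siIGF2BP2 and siIGF2BP3 it was -3.47 points (exact permutation test, two-sided p = 0.8, smallest possible 0.1), but 2.34 points without siIGF2BP2 replicate 3 and 3.28 points without siIGF2BP3 replicate 1. Over the summed reads of siIGF2BP1 the share was 6.91% (27 of 391 reads, 95% interval 4.60% to 9.89%), against 5.71% in siC (2 of 35 reads, 0.700% to 19.2%). In every library the 3p arm was the major product.

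**Figure D4:**
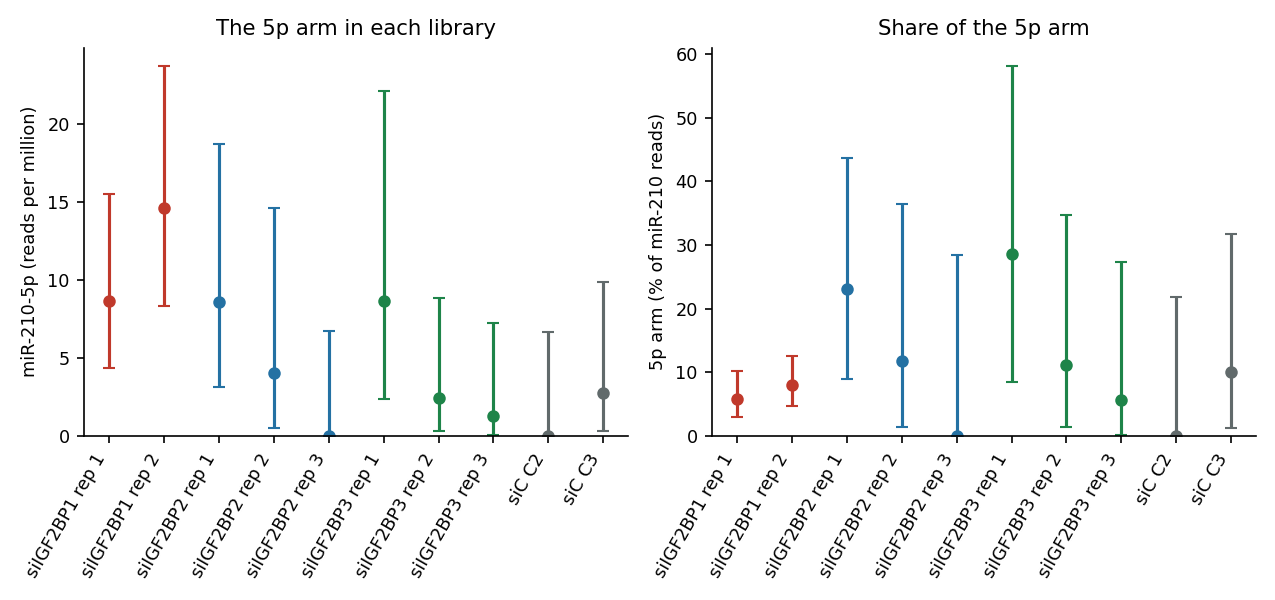
Left, RPM of miR-210-5p (y axis, from 0) in each library (x axis). Right, share of the 5p arm among all miR-210 reads (y axis, in %). Colours mark groups, and error bars are exact 95% intervals. The siIGF2BP1 libraries have the narrowest intervals for the share, at 5.79% and 7.96%, and the intervals of all other libraries reach above 20%.

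Among the other miRNAs known to be induced by low oxygen in cultured cells, 23 were listed. Of these, 22 were tested and miR-103a-3p, listed at 0, was not. In siIGF2BP1 against siC, 3 of the 22 were called higher and 0 lower. These were miR-424-5p, which stabilises HIF proteins in endothelial cells (372 ± 23.7 in siIGF2BP1 and 134 ± 14.2 in siC, n = 2 each, log2 fold change 1.47, limma adjusted p = 0.00363), miR-181a-3p (1.03, adjusted p = 0.00566) and miR-27b-3p (0.59, adjusted p = 0.0495). The background in this contrast was 2.14% of 889 miRNAs called higher and 0.337% called lower (19 and 3 miRNAs), a split that became 12 higher and 13 lower with TMM scaling, under which the median of the 313 miRNAs was -0.04 in place of 0.16. The median log2 fold change of the list was 0.09, against 0.10 over all miRNAs tested and 0.16 over the 313 miRNAs. Of the 22 members, 12 were above 0. With a stricter filter, a value of 10 in 2 or more libraries, 20 members and 364 miRNAs were tested. Of the members 5 were called higher and 2 lower, and of the 364 miRNAs 37 higher and 9 lower. The 2 most abundant members were miR-21-5p, an oncogenic miRNA, at 0.30 ± 0.09 (SE, limma adjusted p = 0.123), and miR-181a-5p, a regulator of lymphocyte signalling, at 0.22 ± 0.13 (adjusted p = 0.532). The inflammation-linked miR-155-5p was at -0.47 ± 0.12 (adjusted p = 0.0743). The calls depended on single libraries. Without siC C2 only a fall of miR-181c-5p was called, without siC C3 only the rise of miR-424-5p, without siIGF2BP1 replicate 1 only that of miR-181a-3p, and without siIGF2BP1 replicate 2 none. The call of miR-27b-3p held in 2 of 10 omissions of a library. With TMM, median-of-ratios or library-total scaling the split was 2 higher and 2 lower, as miR-27b-3p lost its call and miR-125b-5p and miR-155-5p were called lower. The call of miR-27b-3p was also lost with upper-quartile scaling, pseudocount 0.1, no filter or only the 2 groups in the fit, by edgeR and by DESeq2.

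In siIGF2BP2 against siC, where 9.00% of all miRNAs were called (1.24% higher and 7.76% lower), 0 members of the list were higher and 3 were lower: miR-181c-5p (-3.02), miR-23b-3p (-1.0) and miR-27b-3p (-0.52). The values of miR-21-5p and miR-181a-5p were 0.16 and 0.25 (limma adjusted p = 0.377 and 0.304). The median of the list was -0.08, against -0.03 over all miRNAs tested and 0.04 over the 313 with a mean of at least 10. With the stricter filter 0 of 20 members were higher and 3 lower, where 16 of 364 miRNAs were called higher and 49 lower. In siIGF2BP3 against siC 10.6% of all miRNAs were called (1.91% higher and 8.66% lower). In the list 1 was higher, miR-155-5p (0.41, limma adjusted p = 0.0379), and 7 were lower. The median of the list was -0.18, against 0.00 over all miRNAs and 0.08 over the 313. With the stricter filter 1 of 20 members was higher and 7 lower, where 23 of 364 miRNAs were called higher and 54 lower. The largest falls were those of miR-181c-5p (-3.72), miR-23b-3p (-1.46), miR-27b-3p (-1.0) and miR-181a-5p (-0.80). The members called lower included both arms of miR-181a and other miR-181 miRNAs. Such related miRNAs were counted as separate members in every contrast. The rise of miR-155-5p was not called with TMM or median-of-ratios scaling, by edgeR or by DESeq2, and its call held in 3 of 10 omissions of a library. Under upper-quartile scaling the list split into 7 higher and 1 lower in siIGF2BP2, and 8 higher and 2 lower in siIGF2BP3; all miRNAs then split into 94 higher and 64 lower in siIGF2BP2 and 137 and 66 in siIGF2BP3, where the deposited scaling gave 11 and 69 in siIGF2BP2 and 17 and 77 in siIGF2BP3. Without siC C3 or siIGF2BP2 replicate 3, 1 member was called in siIGF2BP2. Source name and knockdown cannot be told apart in these contrasts, and miR-181c-5p varied widely in siC (872 ± 657). Between siIGF2BP2 and siIGF2BP3, 5 of 22 members were higher in siIGF2BP2 and 1, miR-155-5p (-0.60), lower. Of all miRNAs tested 1.69% were called higher and 1.46% lower. The median of the list was 0.19, against 0.00 over all miRNAs tested and -0.04 over the 313. With the stricter filter 5 of 20 members were higher and 2 lower, where 17 of 364 miRNAs were called higher and 18 lower. The rises included miR-181a-5p (19337 ± 1774 in siIGF2BP2 and 9311 ± 732 in siIGF2BP3, n = 3 each, log2 fold change 1.05, limma adjusted p = 0.000107), miR-181b-5p (0.73) and miR-21-5p (0.68).

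**Figure D5:**
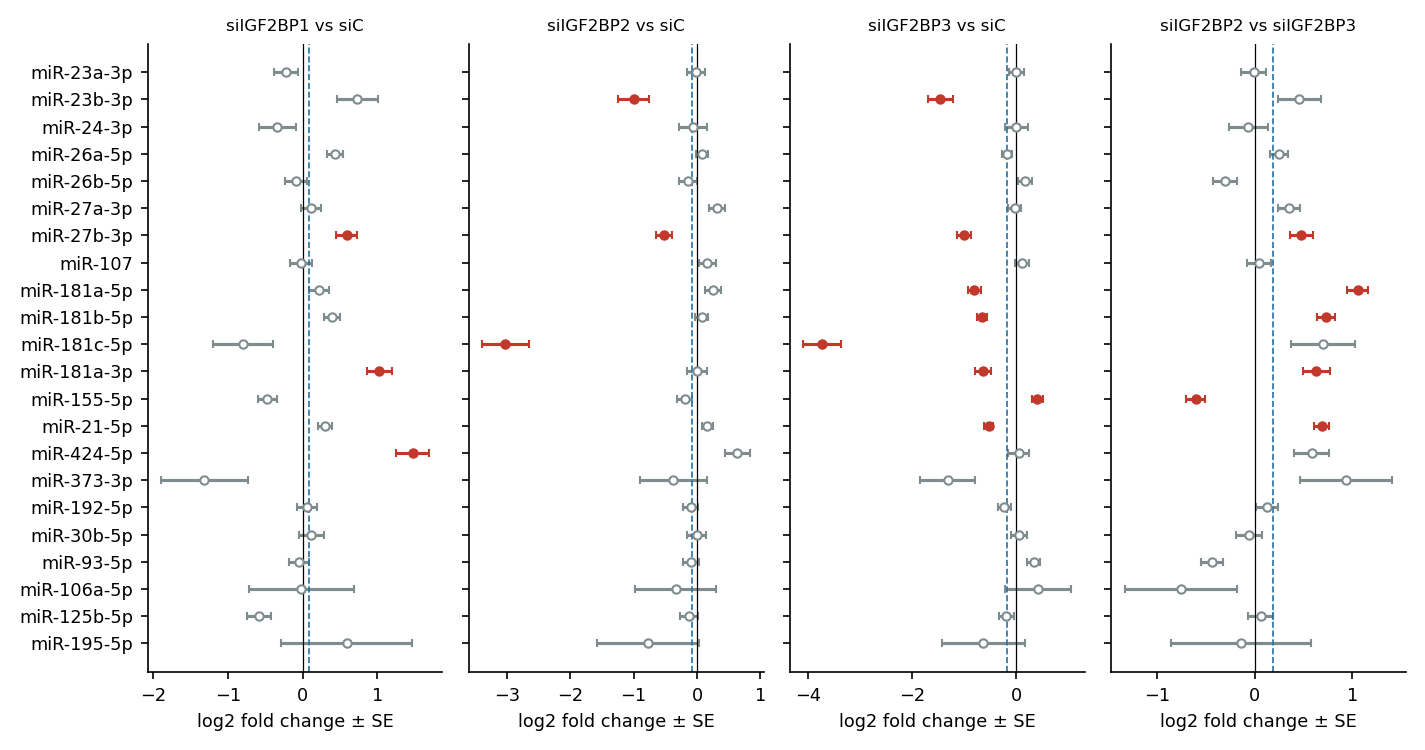
Log2 fold change with its SE (x axes) of the 22 other hypoxia-induced miRNAs tested (rows), in 4 contrasts. Red filled points passed the limma threshold and grey open ones did not, and the dashed line is the median of the list. In siIGF2BP1 against siC 3 points are red, all above 0, and the median is 0.09.

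A second list held 10 miRNAs known to repress HIF subunits or to act on their regulation. It shares miR-107 and miR-155-5p with the first. Of these, 8 were tested, and miR-519c-3p and miR-429 had 0 reads in all libraries. In siIGF2BP1 against siC, where 2.47% of all miRNAs were called, 1 was called, miR-22-3p, which represses HIF1A mRNA (36439 ± 3713 in siIGF2BP1 and 25952 ± 2851 in siC, n = 2 each, log2 fold change 0.49, limma adjusted p = 0.0322). Its call ended with TMM or median-of-ratios scaling, by edgeR and by DESeq2, all of which called miR-155-5p lower instead. It also ended with upper-quartile scaling and with only the 2 groups in the fit, and it held in 4 of 10 omissions of a library. The median of the list was -0.08, against 0.10 over all miRNAs tested and 0.16 over the 313 with a mean of at least 10. The miR-17-92 members miR-17-5p, miR-18a-5p and miR-20a-5p had log2 fold changes of -0.16, -0.36 and -0.15, none of them called. In siIGF2BP2 against siC, where 9.00% of all miRNAs were called, 0 of 8 were called by limma (lowest adjusted p 0.437, with 0 at an unadjusted p under 0.05), 0 by edgeR and 0 by DESeq2; the most abundant, miR-22-3p and miR-155-5p, had 0.14 and -0.20. In siIGF2BP3 against siC 1 of 8 was called, miR-155-5p, which is near the 10.6% called over all miRNAs. Between siIGF2BP2 and siIGF2BP3, where 3.15% were called, it was again the 1 member called. On the band of chromosome 11 that holds MIR210, the miRNAs of the imprinted genes IGF2 and H19 were nearly unread, with 1 read of miR-483-3p in siC C2 and 0 reads of miR-483-5p, miR-675-3p and miR-675-5p in all libraries.

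Of the 312 other miRNAs with a mean of at least 10, the one whose level over the 10 libraries was most like that of miR-210-3p was miR-224-5p (Pearson r = 0.97, on the log2 scale). It averaged 345 ± 29.7 in siIGF2BP1, 157 ± 24.0 in siIGF2BP2, 119 ± 6.70 in siIGF2BP3 and 155 ± 6.79 in siC. Next were miR-1294 (0.93), miR-146b-5p (0.92), miR-874-3p (0.92) and miR-132-3p (0.92). None of these shares the seed of miR-210-3p, as the mature sequences with the seed in capitals show.
miR-224-5p: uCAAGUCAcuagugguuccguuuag
miR-1294: uGUGAGGUuggcauuguugucu
miR-146b-5p: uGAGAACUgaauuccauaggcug
miR-874-3p: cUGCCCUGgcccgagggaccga
miR-132-3p: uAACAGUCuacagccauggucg
These values describe libraries that share groups, source names and scaling, and the correlations changed to different degrees when the siIGF2BP1 libraries were left out. Over the other 8 libraries r was 0.86 for miR-224-5p and 0.15 to 0.46 for the other 4. The least like were miR-29a-3p, a repressor of collagen mRNAs (-0.94, with 4893 ± 36.9 in siIGF2BP1 and 6215 ± 441 in siC), miR-3689f (-0.92), miR-454-3p (-0.84), miR-221-3p (-0.83) and miR-500a-3p (-0.81). Over the other 8 libraries r was -0.66 for miR-29a-3p, -0.38 for miR-3689f, -0.77 for miR-454-3p, -0.75 for miR-221-3p and 0.02 for miR-500a-3p.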

How the data were processed

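Small RNA libraries of ES-2 cells were made with an Illumina TruSeq kit from total RNA and size-selected, per the labels' protocols. The tools were edgeR 3.12, featureCounts 1.4.6, Bowtie2 2.2.4 and cutadapt 1.6, and the build hg19, per the submitters' processing notes. For their settings and the kind of scaling the sources used here name nothing. The deposited signal columns are read counts scaled by the authors. All values (100%) were whole multiples of 1 read within 0.01 reads, so that reads could be recovered. The authors' deposited log2 fold changes and p-values (as false discovery rates) were used only where named, and 0 other columns of samples were left out. The siC columns match no single control sample and are called siC C2 and siC C3.

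Copies of a mature miRNA were summed. limma 3.58.1 (R 4.3.3) with an intensity trend was run on log2(value + 1) for the 889 miRNAs that reached a value of 1 in 2 or more libraries, all 4 groups in 1 fit, with Benjamini-Hochberg adjustment at 0.05. Alternatives included edgeR 4.0.16 (quasi-likelihood, TMM) and DESeq2 1.42.0 on recovered reads. On those reads edgeR tested 335 miRNAs and called 42 in siIGF2BP1 against siC, 17 higher and 25 lower, where limma called 19 higher and 3 lower. The fits were tested on simulated data. Exact tests used scipy 1.17.1. The RefSeq table (GRCh38.p14) supplied sequences, and the deposited table holds no coordinates.

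The member, lists and tests were chosen with earlier results of these data known. Named miRNAs are both miR-210 arms, the 5 most and 5 least correlated and the 5 next largest rises among miRNAs with a mean of at least 10, up to 4 called members of a list, with its 2 most abundant where fewer were called, and all references and miRNAs of 11p15. The miR-17-92 members, miR-125b-5p and some mentions of miR-155-5p were added after their values were seen.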

Additional observations from a re-analysis of the deposited data

How the results depend on the processing

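The log2 fold change of miR-210-3p in siIGF2BP1 against siC was 2.38 to 2.65 under 11 alternatives, of which 6 moved it by more than the spread between libraries: pseudocount 5 (2.43), TMM (2.40), median of ratios (2.38), upper quartile (2.38), edgeR (2.39) and DESeq2 (2.42). That spread is a narrow measure, as the siC SD was 2.28% of its mean where counting alone gives about 24.7%. All 6 values lay within 1 SE (0.28) of 2.60. Leaving out 1 library gave 2.51 to 2.69. In siIGF2BP3 against siC (-0.29 ± 0.26, SE) the moves by the same measure were pseudocount 5 (-0.25), TMM (-0.37), median of ratios (-0.40), upper quartile (0.28), edgeR (-0.41) and DESeq2 (-0.41). All but upper quartile lay within 1 SE. In siIGF2BP2 against siC upper quartile gave 0.49, and left-out libraries -0.07 to 0.22. In siIGF2BP1 against siIGF2BP2 upper quartile gave 1.89. In siIGF2BP1 against siIGF2BP3 pseudocount 5, TMM, median of ratios and upper quartile gave 2.68, 2.77, 2.77 and 2.10. Upper quartile also moved the median of the 313 miRNAs with a mean of at least 10. It went from 0.04 to 0.52 in siIGF2BP2 against siC. In siIGF2BP1 it went from 0.16 to -0.53 against siIGF2BP2 and from 0.15 to -0.63 against siIGF2BP3. The siIGF2BP2 to siIGF2BP3 difference of miR-210-3p stayed positive and uncalled in all 12 alternatives (0.21 to 0.41, adjusted p 0.380 to 0.729) and all 10 omissions (0.23 to 0.51). For miR-210-5p that difference was 0.00231 with pseudocount 5 and -0.88 to 0.74 over omissions; in siIGF2BP2 against siC omissions gave -0.0342 (without siC C2) to 1.84. No alternative that tested miR-210-5p called it. The arm share difference ranged from -3.13 to 6.87 points (siIGF2BP1 against siC) and -9.20 to 3.28 (siIGF2BP2 against siIGF2BP3) over omissions.

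Calls in the hypoxia-induced list numbered 1 (upper quartile), 7 (stricter filter, 10 in 2 libraries), 5 (DESeq2) and 0 (only the 2 groups in the fit) in siIGF2BP1 against siC, and 0 to 4 over omissions. Over all miRNAs the 4 named settings called 10 of 889, 46 of 364, 35 of 1196 and 0 of 889 in that contrast. In siIGF2BP2 against siC list calls numbered 8 (upper quartile) and 1 (2 groups), and 1 to 3 over omissions of a knockdown library. All miRNAs called then numbered 158 of 889, 75 of 889, and 53 to 91 over those omissions. For siIGF2BP2 against siIGF2BP3 edgeR and DESeq2 each gave 10, where they called 40 of 335 and 42 of 1196 miRNAs in all. A replicate block gave 0, with 1 miRNA of 889 called in all where 28 were called without it. The shared numbers did not pair the samples (correlations of -0.16 to -0.04). HIF-directed calls in siIGF2BP1 against siC were 2 (library total), 2 (stricter filter), 0 (upper quartile) and 0 (2 groups). Over all miRNAs these settings called 24 of 889, 46 of 364, 10 of 889 and 0 of 889. In siIGF2BP2 against siC upper quartile gave 2, where 158 of 889 miRNAs were called. In siIGF2BP3 against siC upper quartile gave 7, where 203 of 889 were called. TMM, median of ratios, no filter, edgeR, DESeq2 and 2 groups gave 0 in siIGF2BP3 against siC, where 64 to 95 miRNAs were called in all. Between siIGF2BP2 and siIGF2BP3 the replicate block gave 0. Omissions gave 0 to 1. Under Spearman correlation 1 of the 5 most similar miRNAs was again among the top 5. The other causes were not tested. Each library outside siIGF2BP1 held 10 to 20 reads of miR-210-3p, and the part of depth in the differences among those groups was not tested.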
